A study of Homo sapiens with 8 samples.

Results

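The genes described here encode the kinases of the MAP kinase cascades, taken as the protein-coding genes whose symbol is MAPK, MAP2K, MAP3K or MAP4K followed by a number, with 1 MAP3K gene of that form not used here. They number 42 of the 19961 protein-coding genes considered. The rule picks genes by name and uses no measured value, though this gene set was proposed with earlier results of these data known. YTHDF2 is a cytoplasmic protein that binds mRNA carrying N6-methyladenosine (m6A) and brings in decay factors. Crosslinks between it and RNA were mapped in HEK293T cells, an established human embryonic kidney line with the genotype given as WT, by iCLIP2, in which ultraviolet light fixes the protein to RNA and reverse transcription stops at the crosslinked base. The 8 libraries comprised 4 treated with STM2457, which inhibits the m6A methyltransferase METTL3, at 20 µM in 0.2% DMSO, and 4 controls with 0.2% DMSO alone, both for 12 h, and the study asked which binding depends on m6A. The file analysed is 1 list of binding sites with no value per library. STM2457 and DMSO could therefore not be compared, replicate error and read depth are unknown, and every value below is a description of that list with no test.

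MAP kinase cascades pass a signal through successive phosphorylations. MAP4Ks and small GTPases act on MAP3Ks, these phosphorylate the dual-specificity MAP2Ks, and each MAP2K acts on a few MAP kinases: the classical ERKs for growth factor signals, JNK and p38 kinases for stress and cytokine signals, and ERK5. Several members have close paralogues with overlapping substrates, and phosphatases and scaffolds shape the signal that passes.

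A site here is a distinct strand-specific position of 1 nt, and a gene that holds at least 1 site on its strand is called bound. Of the 42 kinase genes, 18 were bound (42.9%, exact binomial 95% interval 27.7 to 59.0, covering counting alone), against 38.9% of all protein-coding genes. Restarts in the order of rows split each strand into 4 unlabelled runs. These were joined here into 2 parts, the shorter made of the first 2 runs of each strand. In the shorter part the shares were 33.3% and 22.6%. In the whole list the kinase genes held 105 sites. The median bound kinase gene carried 4 sites, or 0.0878 per kb of genomic span with introns included. Over all 7771 bound genes the medians were 3 sites (quartiles 2 and 6) and 0.109 sites per kb. With the sites at or above the median score, kinase genes and all genes alike had a median of 2 sites. Among genes with 3 or more sites both medians were 5. The bound kinase genes were long, with a median span of 73.7 kb against 31.7 kb for bound genes in general, and unbound kinase genes had a median of 85.0 kb. With 10 or more sites there were 4 kinase genes, or 9.52% of them, beside 4.95% of all protein-coding genes. That number was 2 (4.76%, beside 2.93%) with positions within 50 nt joined, and 0 with the sites at or above the median score (beside 1.13%) or in the shorter part of the list (beside 0.085%). These 4, MAP3K4, MAP3K21, MAP2K4 and MAPK6, together carried 46.7% of the sites. RNA levels were not measured in these data, so a gene at 0 sites cannot be told from one whose mRNA is scarce.

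**Figure D1:**
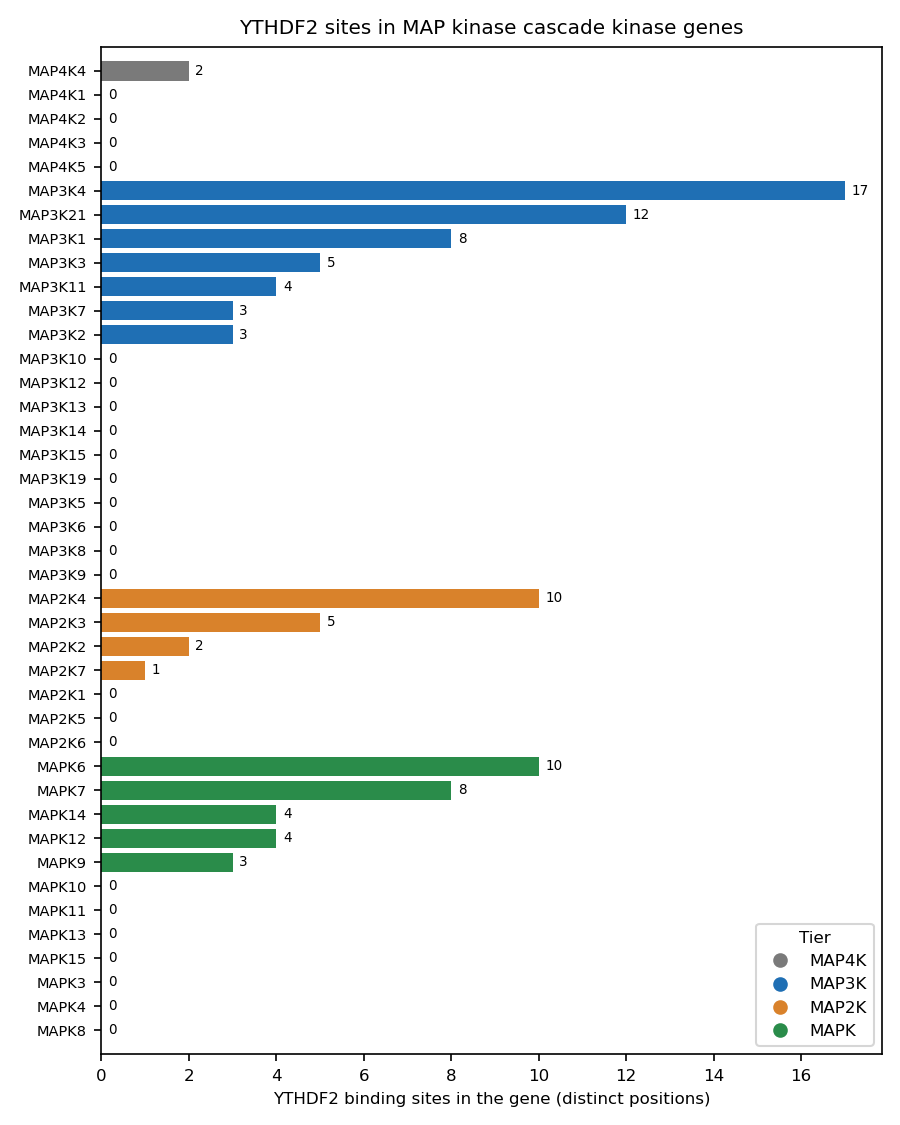
Number of YTHDF2 binding sites (x axis, distinct positions) in 41 of the 42 kinase genes (y axis), coloured by tier. MAP3K4 had the most, 17, and 24 genes had 0.

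The tiers are given apart, each on a small number of genes. At the top of the cascade 1 of 5 MAP4K genes was bound. At the MAP3K tier 7 of 17 were bound with 52 sites, at the MAP2K tier 4 of 7 with 18 sites, and at the MAPK tier 6 of 13 with 33 sites. In that order the bound shares were 20.0, 41.2, 57.1 and 46.2%, beside 38.9% of all protein-coding genes. The exact binomial intervals of these shares overlap, from 0.51 to 71.6% for MAP4K and from 18.4 to 90.1% for MAP2K. Each tier's interval includes the share of all genes, so no difference between tiers can be read from these counts. Grouped by the pathway that the MAP2K and MAPK genes serve, sites numbered 14 over 5 JNK pathway genes, 13 over 6 p38 pathway genes and 8 over 2 ERK5 pathway genes. MAP2K4 was counted with JNK, although it can also activate p38. The atypical kinases MAPK4, MAPK6 and MAPK15, which are not activated by the usual MAP2Ks, had 10 sites, all in MAPK6.

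Among MAP4K genes, MAP4K4, a Ste20-type kinase upstream of JNK, had 2 sites on chromosome 2 (GRCh38, plus strand). The first, at 101831753, scored 13.4 and lay 62.9 kb before the gene's 3′ end. The second, at 101891353, scored 21.2 and lay 3.34 kb from that end. The score is the authors' number for each site, on a scale not given in the sources used here. Over the whole list it had a median of 8.67 and quartiles of 3.75 and 20.8, so both MAP4K4 sites scored above the median. Where a position stands on 2 rows, the higher score is given. MAP4K1, a kinase best known from blood cells, MAP4K2, MAP4K3 and MAP4K5 had 0 sites. Of the paralogues MAP4K3 and MAP4K5 neither was bound.

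The MAP3K tier held the gene with the most sites in the whole list, MAP3K4. With the sites at or above the median score MAP3K4 had 6, and MAPK6 had the most, 8. MAP3K4, also called MEKK4, a kinase that feeds the p38 and JNK pathways, had 17 sites on chromosome 6 (plus strand), a number reached by 2.78% of all bound genes. Of these, 13 formed a stretch of 1202 nt from 161048652 to 161049853, about 67.5 to 68.7 kb before the 3′ end. This stretch held the gene's 5 best-scoring sites. The 2 highest lay 4 nt apart, at 161048918 with a score of 93.7 and at 161048922 with 71.5, and the other 3 scored 57.9, 47.4 and 35.4. Each of these 3 stands on 2 rows, with lower scores of 6.47, 5.12 and 0.68. Scores of that first size or higher were reached by 3.62% of all positions. In contrast with this interior stretch, 3 sites no more than 0.492 kb from the gene's end scored 15.8, 2.03 and 0.32. A further site, at 161034400, stood alone and scored 2.48.

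MAP3K21, a mixed-lineage kinase also called MLK4, had 12 sites on chromosome 1 (plus strand) that were spread over 54.9 kb. They fell into 5 stretches, counting sites as joined when no more than 500 nt apart. Near the 5′ end, sites at 233327864 and 233328171 lay 140 and 447 nt from the start of the gene and scored 27.7 and 19.4. A stretch of 4 sites from 233379214 to 233379597 held the highest score, 86.8, and another 4 from 233382511 to 233382782 held a site at 67.8. The 2 isolated sites between the 5′ end and these stretches scored 0.47 and 3.30. Scores above the list's upper quartile occurred in 3 of the 5 stretches of MAP3K21. In MAP3K4 they occurred in 1 of 3, a stretch that is joined at gaps of up to 500 nt but divided at 200 nt. At 200 nt the stretches numbered 7 in MAP3K21 and 5 in MAP3K4, so the counts of both genes depend on the gap.

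MAP3K1, or MEKK1, which joins a kinase domain to a ubiquitin ligase domain, had 8 sites on chromosome 5 (plus strand). A stretch of 5 lay from 56881708 to 56882313, 13.8 to 14.4 kb before the 3′ end, with scores from 2.63 to 14.6. A pair at 56893735 and 56893886 scored 16.3 and 5.69, and the last, at 56895904, scored 8.30. None of the 8 reached the list's upper quartile. MAP3K1 thus combined many sites with no high single score. Its median score, 6.49, lay between those of MAP2K4 (4.67) and MAP3K4 (7.73), which had higher top sites.

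The remaining bound MAP3K genes had 5 sites or fewer. MAP3K3 and MAP3K2, the closely related MEKK3 and MEKK2 that can act on the ERK5 pathway, had 5 and 3 sites. Those of MAP3K3 lay between 1.11 and 2.43 kb from its 3′ end, with a highest score of 34.2 (9.92 on its other row). Those of MAP3K2 lay within 162 nt, between 8.94 and 9.11 kb from its 3′ end, with a highest score of 33.3. The paralogues thus had like highest scores at unlike distances from the gene end. MAP3K7, or TAK1, the kinase activated by TGF-beta and inflammatory cytokines, had 3 sites, at 40.4, 35.3 and 12.5. The first stands on 2 rows, and its lower score of 7.24 lay below the list's median. MAP3K11, the mixed-lineage kinase MLK3, had 4 sites, none of them above the median, with scores from 3.80 to 7.78.

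By family, a grouping made after the values were seen, all 4 MEKK genes (MAP3K1 to MAP3K4) were bound and held 33 of the 105 sites. Of these 33, 17 lay in MAP3K4 alone. Over all protein-coding genes 38.9% were bound, and families of so few genes allow no comparison with that share. Of the 6 mixed-lineage kinase genes 2 were bound, with 16 sites, and MAP3K9, MAP3K10, MAP3K12 and MAP3K13 had none. The 3 ASK genes, which encode oxidative stress-responsive kinases (MAP3K5, MAP3K6 and MAP3K15), had 0 sites, although MAP3K5 spans 236 kb. MAP3K8, MAP3K14, the NF-kappaB-inducing kinase, and MAP3K19 also had 0.

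**Figure D2:**
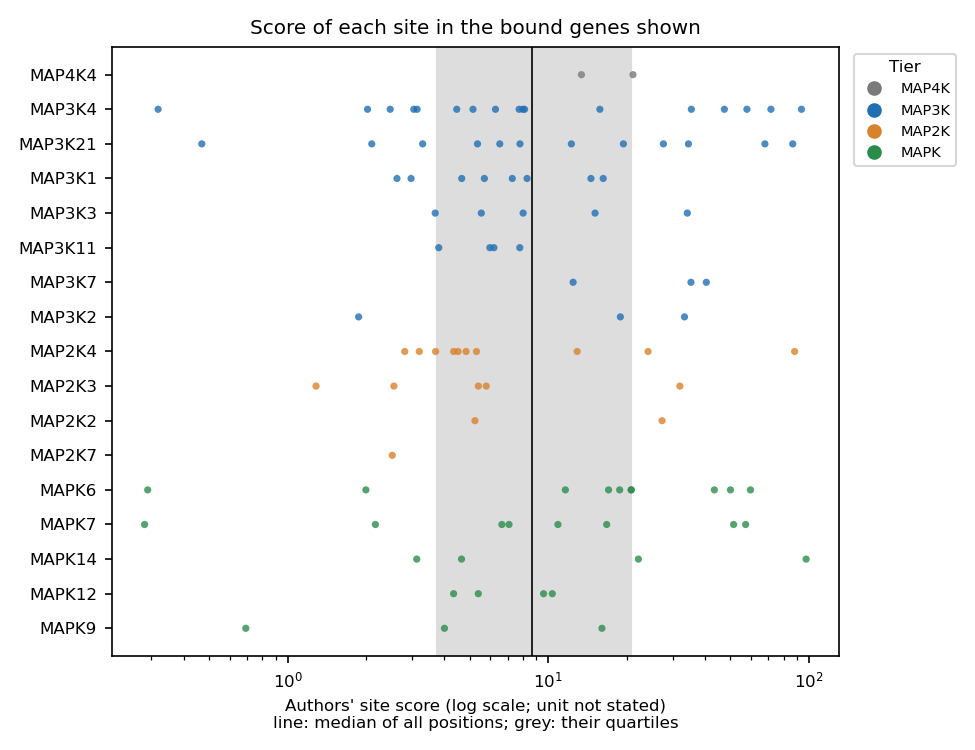
The authors' score of 101 of the 105 sites (x axis, log scale, unit not stated) in 17 of the 18 bound genes (y axis), with the median of all positions as a line and their quartiles in grey. MAPK14, MAP3K4, MAP2K4 and MAP3K21 held the highest single sites, from 86.8 to 97.7, while all MAP3K11 sites lay below the median.

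At the MAP2K tier, sites concentrated in 2 genes on chromosome 17. MAP2K4, or MKK4, which phosphorylates JNK and p38 kinases, had 10 sites (plus strand). Of these, 6 lay within 398 nt from 12141278 to 12141675, 2.15 to 2.55 kb before the 3′ end, and included the highest score, 88.2 at 12141500. This position stands on 2 rows of the list, and its other score was 9.66. A group of 3 nearer the 3′ end, from 12143278 to 12143438, scored 3.20, 4.51 and 5.31. The remaining site, at 12081362, scored 3.70 and lay 62.5 kb before the 3′ end.

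That isolated MAP2K4 site lay 537 nt upstream of the hairpin of miR-744, a microRNA encoded within MAP2K4 on the same strand (GRCh38.p14, chr17:12081899-12081996, RefSeq), and not in it. The mature arms are shown because this hairpin was the one microRNA in the RefSeq table that lay inside a bound kinase gene. Capitals mark the seed, bases 2 to 8, written 5′ to 3′.
miR-744-5p: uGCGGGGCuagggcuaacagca
miR-744-3p: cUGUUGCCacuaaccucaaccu
The 2 arms have different seeds. No position in the list fell on either arm within MAP2K4.

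MAP2K3, or MKK3, an activator of p38 kinases, had 5 sites within 855 nt from 21314223 to 21315077, of which 4 were within 1 kb of the gene's end. Their scores were 5.39, 1.29, 32.0, 2.56 and 5.78 in 5′ to 3′ order, so 1 of the 5 stood above the list's median. Its paralogue MAP2K6, the other p38 activator, had 0 sites. MAP2K2, or MEK2, an activator of the classical ERKs, had 2 sites on chromosome 19 (minus strand). That at 4117624 scored 5.24 and that at 4099374 scored 27.3 on one row and 7.10 on the other. Its paralogue MAP2K1, or MEK1, had 0. MAP2K7, which acts on JNK kinases, had 1 site, at 7912656 on chromosome 19, with a score of 2.52, against 10 in MAP2K4, the other JNK activator. MAP2K5, the ERK5 activator, had 0 sites over a span of 264 kb. In the whole list, 1 gene of each of these 3 MAP2K pairs thus held all or nearly all of the pair's sites. The counts are small, and the pair of MAP2K2 and MAP2K1 rests on 2 sites.

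Among the MAP kinases themselves, MAPK6 and MAPK7 had the most sites, and both carried them in dense stretches. MAPK6, or ERK3, an atypical and rapidly degraded kinase, had 10 sites on chromosome 15 (plus strand), 9 of them within 952 nt from 52045850 to 52046801. In that stretch 8 of the 9 scored above the list's median, the highest being 59.7 at 52046738, 50.0 at 52046582 and 43.4 at 52046221. The exception scored 0.29. The tenth site, 3.24 kb from the 3′ end, scored 1.998.

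MAPK7, or ERK5, which carries a long carboxy-terminal extension after its kinase domain, had 8 sites on chromosome 17 (plus strand) in a gene of 5.80 kb. At 1.38 sites per kb of span it was the densest of the kinase genes, whose next value was 0.455 in MAPK12. Of the 8 sites, 7 lay within 583 nt from 19380787 to 19381369. The highest scored 57.2 at 19380864 and 51.4 at 19381006, and the others ranged from 0.28 to 16.8. Per kb of genomic span, short genes with little intron rank high, and exon boundaries were not used here.

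The p38 genes MAPK14 and MAPK12 had 4 sites each, in unlike positions. MAPK14, or p38-alpha, had its 4 sites on chromosome 6 (plus strand), 13.7 to 15.6 kb before its 3′ end. Its site at 36110557 scored 97.7, the highest of the 105 and reached by 3.37% of all positions, and the others scored 22.2, 4.65 and 3.13. MAPK12, or p38-gamma, had its 4 within 220 nt from 50252987 to 50253206 on chromosome 22 (minus strand), all within 0.305 kb of the gene's end and none scoring above 10.4. Each has a p38 paralogue beside it with no protein-coding gene between them, MAPK13 beside MAPK14 and MAPK11 beside MAPK12, and both of these neighbours had 0 sites.

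MAPK3, or ERK1, which carries growth factor signals, had 0 sites in a span of 9.12 kb. Of the JNK genes, MAPK9, or JNK2, had 3 sites within 101 nt, from 180236305 to 180236405 on chromosome 5, with scores of 0.69, 16.1 and 4.00. MAPK8, or JNK1, had 0, as did MAPK10, or JNK3, a largely neuronal kinase and the longest of the genes at 584 kb. MAPK4 and MAPK15 also had 0.

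**Figure D3:**
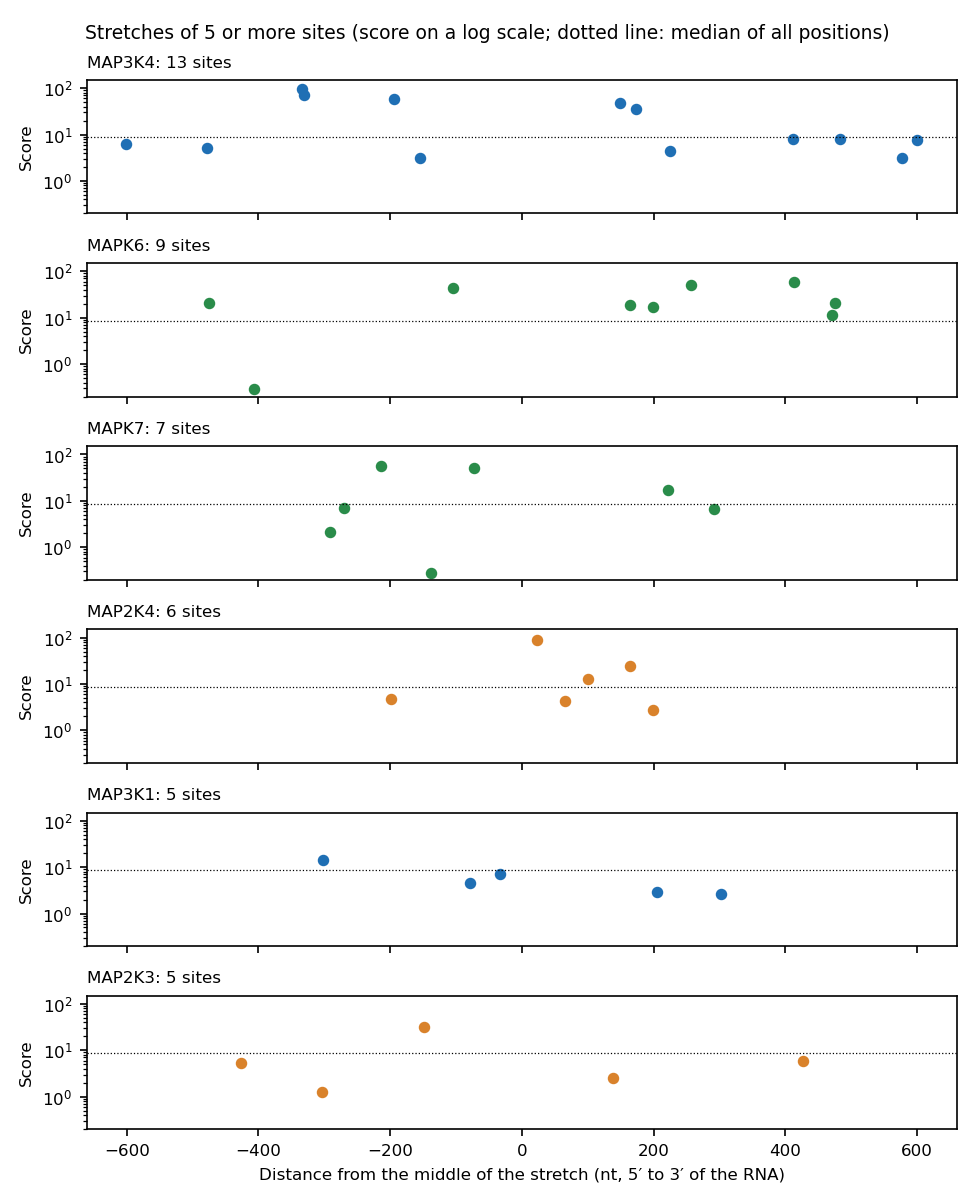
Score (y axis, log scale, unit not stated) of each site against its distance in nt from the middle of its stretch (x axis), for the 6 stretches of 5 or more sites joined at gaps of up to 500 nt. MAP3K4 had 13 sites in 1202 nt, MAPK6 9 in 952 nt, MAPK7 7 in 583 nt and MAP2K4 6 in 398 nt, and MAPK6 had 8 of its 9 above the dotted median of all positions.

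Across the 18 genes the sites fell into 40 stretches, 20 of which were single sites. Stretches of 5 or more sites were found in 6 genes, 1 in each, and held 45 of the 105 sites. Joining at gaps of up to 200 or 1000 nt gave 55 or 36 stretches in place of 40. As a measure with no such gap, the share of a gene's sites in its densest 1 kb was 90.0% in MAPK6, 87.5% in MAPK7, 64.7% in MAP3K4, 62.5% in MAP3K1, 60.0% in MAP2K4 and 33.3% in MAP3K21. Over all 1502 genes with 8 or more sites the median of this share was 58.3%, so MAPK6 and MAPK7 lay well above it and MAP3K21 below. These genes were not matched for span. MAPK7, at 5.80 kb, was the shortest bound kinase gene, so a window of 1 kb covers a larger share of it than of the others. Of the kinase sites 31.4% had a neighbour within 50 nt, beside 29.7% of all assigned sites. With the sites at or above the median score these shares were 17.0% and 20.9%, and in the shorter part 13.8% and 7.81%.

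Measured from the 3′ end, the comparison of kinase sites with others varied with the window. Of the 105, 18 lay in the last 1 kb (17.1%, against 16.8% of all assigned sites), 22.9% in the last 2000 nt (against 30.4%) and 48 in the last 3 kb (45.7%, against 41.2%). In the first 1 kb there were 3 (2.86%, against 5.34%), 2 in MAP3K21 and 1 in MAP3K11. The 18 sites of the last 1 kb came from MAP2K3 and MAPK12 with 4 each, MAP3K4, MAP3K11 and MAP2K4 with 3 each, and MAP3K1 with 1. Many of them scored low. Among sites at or above the list's median score, 8.51% of those in the kinase genes lay in the last 1 kb, against 18.2% of all. Because introns and transcript ends were not used, these distances run along the genome and do not separate coding sequence from untranslated regions.

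**Figure D4:**
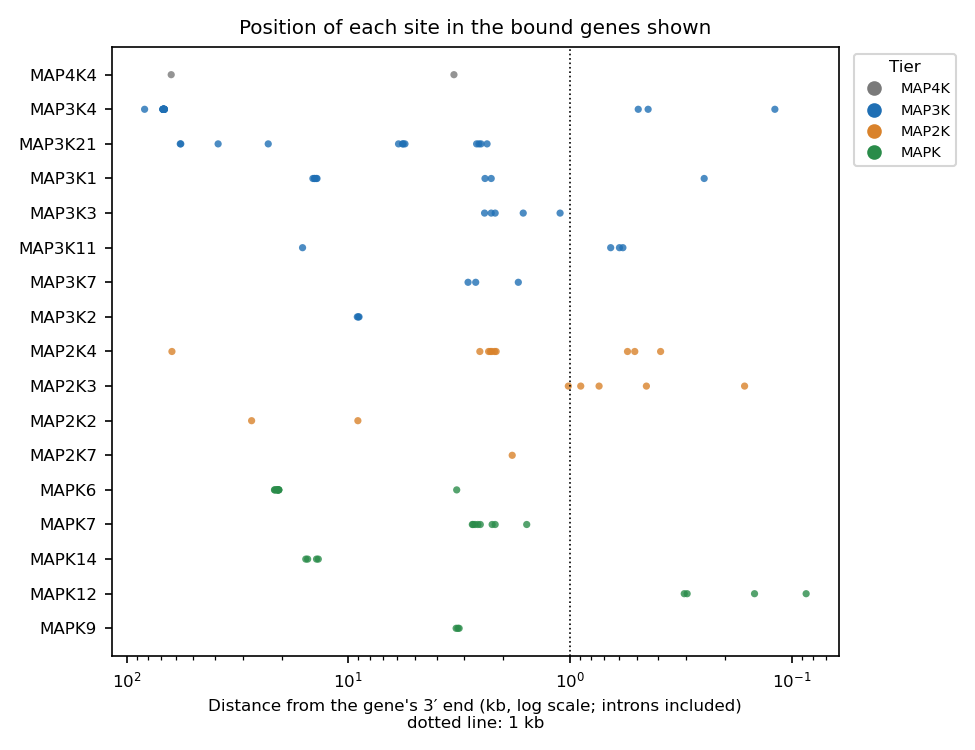
Distance of each site from the 3′ end of its gene (x axis, kb on a log scale, introns included) for 17 of the 18 bound genes (y axis), with 1 kb dotted. All 4 MAPK12 sites lay within 0.305 kb of the end, whereas the MAPK6 stretch lay more than 20.5 kb from it.

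The scores of the 105 sites had a median of 7.78, beside 8.68 for all assigned sites, and 44.8% of them reached the list's median. In the shorter part of the list these medians were 14.5 and 10.7, with the higher score kept for positions in both parts. In 12 of the 18 bound genes (66.7%, beside 51.5% of all bound genes) the best site was above the upper quartile. By tier the median scores were 17.3 for the 2 MAP4K sites, 7.79 for MAP3K, 5.04 for MAP2K and 10.9 for MAPK. Sites of 1 gene share their transcript, so these medians follow the few genes that hold many sites.

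Other genes of the pathway came from 6 lists of 54 genes, chosen with earlier results of these data known. Of these genes 32 were bound (59.3%, beside 38.9% of all protein-coding genes), with 130 sites. In the shorter part of the list 14 were bound (25.9%, beside 22.6%), and with the sites at or above the median score 48.1% (beside 30.5%). Of the RAS and RAF genes, 3 of 6 were bound. The GTPase HRAS had 2 sites and the kinase ARAF 1. Of the RAS regulators 8 of 11 were bound, led by the feedback inhibitor SPRY1 with 7, and the inhibitors NF1 and SPRED1 with 6 each. Of the scaffolds and adaptors 7 of 12 were bound, led by TAB2 with 13, an adaptor that activates the MAP3K7 kinase, and by TAB1, its binding partner, and TRAF6, a ubiquitin ligase of the same pathway, with 7 each. The TAO kinases TAOK1 and TAOK2, further MAP3K-level enzymes, had 5 and 2 sites, and TAOK3 and MOS had 0. Of the downstream kinases 7 of 11 were bound, none with more than 3 sites. The p38 substrates MAPKAPK2 and MAPKAPK3, MKNK2 and RPS6KA1 had 3 each. Of the MAPK phosphatases, which switch the MAP kinases off, 5 of 10 were bound, led by DUSP16, which acts on JNK, with 12, DUSP1 with 6 and DUSP7 with 5. DUSP5 also had 5.

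**Figure D5:**
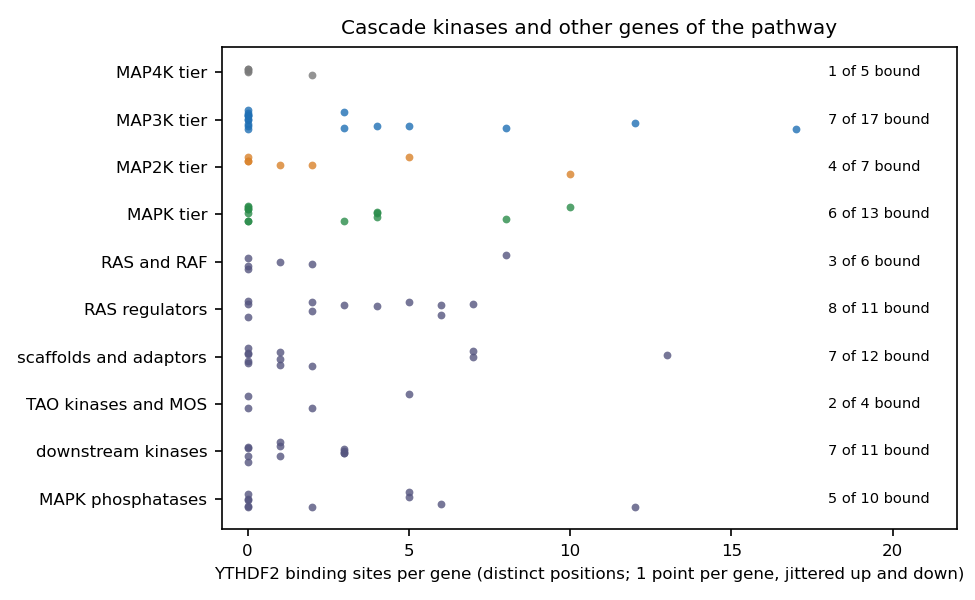
Sites per gene (x axis, 1 point per gene, moved up or down at random for legibility) in the 4 kinase tiers and in the 6 lists of other pathway genes (y axis). TAB2 with 13 and DUSP16 with 12 were the genes outside the kinase tiers with 10 or more sites, and MAP3K4, MAP3K21, MAP2K4 and MAPK6 those within.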

How the data were processed

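The deposited file is 1 headerless list of positions of 1 nt, each with a strand and the authors' score, a positive number with a scale and normalization not given in the sources used here. Per the submitters' processing notes, the build was GRCh38.p12 and the tools included STAR 2.7.3a, bedtools 2.27.1, UMI-tools 1.0.0 and FastQC 0.11.8, in no stated role. How sites were called and filtered and how replicates were combined is likewise not given, and the list has 0 columns of single samples. Groups came from the labels' titles, which do not say whether replicates are separate cultures.

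The 43178 rows were joined to 37613 distinct positions, keeping the higher of 2 scores. Spans of protein-coding genes came from RefSeq (GRCh38.p14), without readthrough genes. Strand came from a RefSeq promoter table (38 of the 42 kinase genes) or from the majority of a gene's sites (2 genes, MAP3K1 among them). In those 2 genes the strand was set by the sites that were then counted on it. Strand was unknown for MAP3K15 and MAPK15, in whose spans no position lay. Where both sources gave a strand they matched in 99.9% of genes. No kinase site lay in another protein-coding gene, and 0 positions lay on the opposite strand of these genes. The join was tested on simulated positions in genes that overlap no other gene and have a strand in the promoter table. That test does not cover overlapping genes or a strand taken from sites. No genome sequence was used here, so planned searches for motifs and transcript regions were not made, and 0 kinase sites lay in a promoter window whose sequence was at hand.

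The kinase genes and lists were chosen with earlier results of these data known. Some genes that the rules select enter the counts but are not reported here by name. In each tier, the 3 with the most sites and the one with the highest score are given in full, paralogues are set side by side, and up to 3 genes of each other list are named, with ties and some at 0 added. Alternatives were joining positions within 50 nt, higher-scoring positions, positions in 1 gene alone, each part of the list, a window of 2000 nt and genes with 3 or more sites. Computation used Python 3.11.15 and pandas 2.3.3.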

Additional observations from a re-analysis of the deposited data

How the results depend on the processing

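Of 46 values recomputed under the alternatives, 31 moved by less than 1.5 times, or for a share stayed in its 95% binomial interval, and 15 moved further. With the higher-scoring positions alone, the kinase genes held 47 sites, with a median of 2 per bound gene (beside 2 over all bound genes). The median per kb was 0.0283 (beside 0.0740), and 0 kinase genes had 10 or more (beside 1.13%). The last 1 kb held 8.51% of sites (beside 18.2%) and 17.0% had a neighbour within 50 nt (beside 20.9%). The median score was 22.2 (beside 20.8). In the shorter part of the list alone the kinase genes held 29 sites, with medians of 1.5 per bound gene (beside 1) and 0.0312 per kb (beside 0.0543). There 0 had 10 or more (beside 0.085%), and 13.8% of sites had a neighbour within 50 nt (beside 7.81%). The median score was 14.5 (beside 10.7). Of the other pathway lists 14 genes were bound (25.9%, beside 22.6% of all genes). In both settings the median score of kinase sites lay above that of all assigned sites, whereas in the whole list it lay below. The first setting selects on the score itself. In the second, positions in both parts, 20 of the 29 kinase sites, kept the higher of their 2 scores. Its medians can therefore hold scores from rows of the longer part, and no reversal can be read from these medians. Both settings use fewer positions by construction. With positions within 50 nt joined, 2 kinase genes had 10 or more (4.76%, beside 2.93% of all genes). The number of bound kinase genes was 14 to 18 of 42 over the alternatives run for it, at 33.3% beside 22.6% of all genes in the shorter part, 38.1% beside 30.5% with the higher-scoring positions, 40.5% beside 37.9% in the longer part and 42.9% beside 37.2% without positions in another gene. MAP2K7 and MAP3K11 were not bound with the higher-scoring positions, MAP2K7 in the longer part, and MAP3K1, MAP3K2, MAP4K4 and MAPK14 in the shorter part. Alternatives for the neighbour share, the other pathway lists and the gap that joins stretches were chosen after seeing the data. The planned motif window was not run, since no genome sequence was used here. No paired analysis was possible because the list holds no value per library.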

Other observations

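Restarts in the row order divide the rows of each strand into several runs, which were joined here into a shorter and a longer part. The runs carry no label, and no treatment is assigned to either part here. Of the 105 kinase sites, 76 were in the longer part alone, 9 in the shorter part alone and 20 in both (19.0%, beside 14.8% of all positions). The 20 shared positions came from 11 genes, with 4 in MAP3K4 and 3 each in MAP3K21 and MAPK7. In 9 of the 20, one score lay at or above the list's median of 8.67 and the other below it. The MAP3K4 site at 161049426, for example, scored 35.4 on one row and 0.68 on the other, whereas the MAP3K21 site at 233327864 scored 27.7 and 23.6. The single MAP2K7 site was in the shorter part alone, while all 8 sites of MAP3K1 and all 4 of MAPK14 were in the longer part alone. Ranks by score, such as that of the highest MAP2K4 site, thus depend on which row is used.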
